A study of Mus musculus with 17 samples.

Results

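This account compares GFP+ medullary thymic epithelial cells of newborn and adult mice that carry an intact Aire gene. Its members are the 6 arrays titled as neonate or adult MEChi GFP+ samples without a knockout mark, 3 of each age, out of 17 arrays in the series. The mice were of the C57BL/6 background and carried Adig, a transgene in which Aire regulatory sequence drives an Igrp-GFP reporter, and every group below carried it. The groups were perinate WT GFP+ cells (3 arrays, labelled 3 days old; the series text gives 0 to 3 days) and adult WT GFP+ cells (3 arrays, 5 weeks old). Beside them stood perinate and adult GFP+ cells of Aire-knockout Adig mice (KO, 3 arrays each), and perinate (2 arrays) and adult (3 arrays) WT cells that lacked GFP. The labels give both sexes for every sample, which a Y-linked transcript on 2 of the perinate KO arrays, described with the knockout cells, goes against. Cells were sorted as CD45-, Ly51- and MHC class II high on a MoFlo sorter. The labels do not say whether arrays of one group came from separate animals, litters or pools, so p-values measure the spread between these arrays, which may be technical. The whole RNA of each sample was amplified and read on an Affymetrix array (Mouse Gene 1.0 ST), and values are RMA intensities in linear units, tested as log2.

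Medullary thymic epithelial cells make proteins that are otherwise restricted to particular organs and show their peptides to developing T cells, so that self-reactive cells are deleted or become regulatory T cells. Aire, a nuclear protein of mature medullary cells, is needed for much of this expression, and the transcription factor Fezf2 for another share. In mice the perinatal days are a window in which the thymus still grows fast and regulatory T cells with long-lasting functions are made, whereas at 5 weeks the organ is near its full size.

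The sorted cells carried the markers that their label calls for at both ages. Aire read 4891, 4094 and 5336 on the perinate arrays, against 4355, 6196 and 4739 on the adult arrays. G6pc2, which encodes the islet protein Igrp and whose name the reporter bears, read 7586, 7948 and 7144 on the perinate arrays, against 8956, 8777 and 9689.8 on the adult arrays. Aire overlapped between the ages and did not pass the test (log2 difference, perinate minus adult, with its standard error, -0.09 ± 0.21, adjusted p = 0.799). G6pc2 was lower on every perinate array but did not pass it either (-0.27 ± 0.14, adjusted p = 0.177). The epithelial marker Epcam was bright at both ages (3565, 3841 and 2639.9 on the perinate arrays, against 3525, 3552 and 3565 on the adult arrays), as was the keratin gene Krt8 (6561, 5657 and 5754 on the perinate arrays, against 7330.1, 6722 and 6787 on the adult arrays). Genes of other cell types were not all dim. Below the 40th percentile on all 6 arrays lay 5 of 12 thymocyte genes on the array (Cd3d, Rag2, Ptcra, Themis and Dntt), 3 of 10 endothelial genes (Kdr, Emcn and Tie1) and 3 of 14 genes of dendritic cells and macrophages (Itgax, Clec9a and Siglech), and the others were above it on at least 1 array. The summed intensity of the dendritic cell and macrophage genes ran from 7446 to 8923 on perinate arrays and from 9709.5 to 10183 on adult arrays.

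Array medians ran between 153.8 and 157.1 and the 40th percentile, below which probe sets were taken as dim, between 109.0 and 112.1. Log2 intensities correlated at 0.973 to 0.979 among the perinate arrays, at 0.982 to 0.9887 among the adult arrays, and at 0.9384 to 0.9551 between the ages, over the genes tested. Adult array 6 stood apart from adult arrays 7 and 8 in the summed intensity of 25 immediate-early and heat shock genes (84375, against 53479 and 57930, with perinate arrays between 46709 and 48389) and of 12 thymocyte markers (2521, against 1331 and 1629, with perinate arrays between 1313 and 1752). Among the perinate arrays, the basal keratin gene Krt5 (1809.9, 4928 and 3015) and the cortical protease gene Prss16 (1148, 711 and 337) spread widely. The part of these differences between arrays in the results below was not tested, beyond the values without adult array 6 that are given where they matter.

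Of 13842 genes tested, 1179 rose (8.52%) and 1888 fell (13.6%) in perinate cells at an adjusted p under 0.05, and 81 of them rose (0.585%) and 301 fell (2.17%) at least 2-fold. The 3 perinate arrays lay above all 3 adult arrays for 2469 genes (17.8%) and below them for 3020 genes (21.8%). Among the genes called, 1152 of those that rose and 1842 of those that fell had arrays that did not overlap. Genes that rose made up 38.4% of the calls, and 49.4% (1747 against 1791 that fell) after quantile normalization between arrays. The number that rose was 742 without adult array 7 and 775 without adult array 8. The central 50% of genes lay between log2 differences of -0.23 and 0.18, around a median near 0. Counts within gene lists below stand beside these shares of all genes, 8.52% that rose and 13.6% that fell.

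The 15 largest rises included genes of adhesion, matrix and cytokine reception. Stmn2, which encodes a microtubule-destabilizing protein best known from neurons, read 327, 371 and 628 on the perinate arrays, against 79.1, 90.2 and 89.6 on the adult arrays (2.30 ± 0.23, adjusted p = 8.47e-06). Mpzl2, an immunoglobulin-domain adhesion protein of epithelia, read 1397, 2578 and 1572 on the perinate arrays, against 536, 343 and 436 on the adult arrays (2.05 ± 0.33, adjusted p = 3.97e-04). For both genes the lowest perinate array lay well above the highest adult one. Lifr, the receptor subunit for leukemia inhibitory factor, read 774, 1112 and 945 on the perinate arrays, against 295, 225 and 284 on the adult arrays (1.81 ± 0.23, adjusted p = 6.47e-05). Fgfr2, the receptor through which FGF7 and FGF10 drive thymic epithelial growth, read 373, 560.0 and 380.5 on the perinate arrays, against 185, 137 and 156 on the adult arrays (1.45 ± 0.22, adjusted p = 2.63e-04). Fgfr2 was not among the 15, of which 3 encode matrix proteins. Vcan, the proteoglycan versican, read 1005, 942 and 892 on the perinate arrays, against 319, 288 and 249.9 on the adult arrays (1.73 ± 0.14, adjusted p = 1.07e-06). Efemp1, the matrix protein fibulin-3, read 293, 272 and 196 on the perinate arrays, against 65.3, 61.3 and 70.9 on the adult arrays (1.93 ± 0.14, adjusted p = 5.20e-07). Fbn2, the fibrillin of developing microfibrils, read 163, 183 and 170.0 on the perinate arrays, against 54.6, 61.5 and 57.6 on the adult arrays (1.57 ± 0.14, adjusted p = 3.60e-06).

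The other 9 of the 15 were Olfr920 (an olfactory receptor gene, 1.76), Mme (the surface peptidase neprilysin, 1.69), Tox3 (an HMG-box nuclear protein, 1.61), Pgm5 (a phosphoglucomutase-like protein of adhesion sites, 1.60), Pltp (phospholipid transfer protein, 1.57), Igsf10 (1.57), the imprinted gene Peg3 (1.56), Adgrl3 (the adhesion receptor latrophilin-3, 1.51) and Aldh1a7 (an aldehyde dehydrogenase, 1.5). All 15 were chosen for their size among called genes with separate arrays, so their values describe the top of the list. The next gene below them, Mpped2, rose by 1.48 on the log2 scale.

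**Figure D1:**
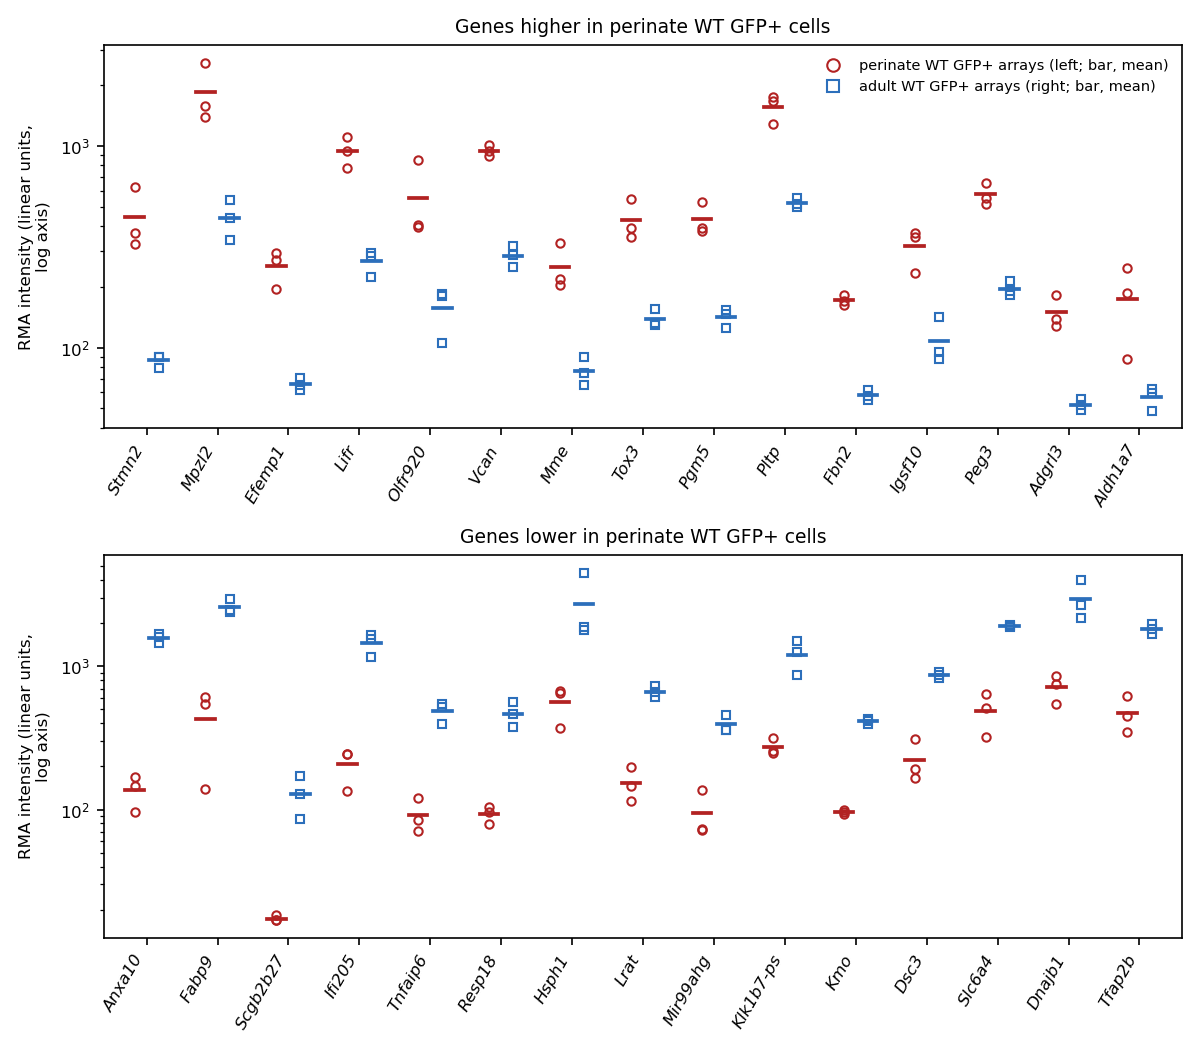
RMA intensity (linear units, log axis) of the 15 genes with the largest rises (top) and the 15 with the largest falls (bottom) in perinate WT GFP+ cells; circles on the left of each pair are the 3 perinate arrays, squares on the right the 3 adult arrays, and bars the means. Anxa10 stands lowest relative to its adult level, with perinate arrays between 96.5 and 167 and adult arrays between 1445 and 1691.

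The largest falls reached further than the largest rises. Anxa10, an annexin known from the stomach lining, read 96.5, 167 and 145 on the perinate arrays, against 1691, 1597 and 1445 on the adult arrays (-3.57 ± 0.21, adjusted p = 1.14e-07), 11.8-fold lower. Fabp9, a fatty acid binding protein of the testis, read 140.0, 543 and 608 on the perinate arrays, against 2384, 2465 and 2977 on the adult arrays (-2.85 ± 0.43, adjusted p = 2.75e-04). The perinate arrays of Fabp9 differed widely among themselves and still lay below every adult array. Ifi205, a member of the interferon-inducible p200 family, read 136, 245 and 246 on the perinate arrays, against 1658, 1156 and 1548 on the adult arrays (-2.83 ± 0.36, adjusted p = 6.31e-05). Tnfaip6, a hyaluronan-binding protein induced by inflammation, read 71.3, 119.7 and 84.9 on the perinate arrays, against 547, 524 and 396 on the adult arrays (-2.43 ± 0.19, adjusted p = 1.07e-06). Lrat, which stores retinol as its ester, read 115, 146 and 197 on the perinate arrays, against 609, 662 and 727 on the adult arrays (-2.16 ± 0.26, adjusted p = 3.75e-05). Kmo, an enzyme of tryptophan breakdown, read 95.5, 98.5 and 93.1 on the perinate arrays, against 393, 429 and 416 on the adult arrays (-2.11 ± 0.24, adjusted p = 2.17e-05). Kmo lay in the dim range on all 3 perinate arrays, and all 4 genes were well above it on the adult arrays. Slc6a4, the serotonin transporter, read 319, 643 and 508 on the perinate arrays, against 1878, 1929 and 1946 on the adult arrays (-2.03 ± 0.18, adjusted p = 3.04e-06). Tfap2b, a transcription factor of neural crest and kidney, read 350.0, 452 and 625 on the perinate arrays, against 1685, 1965 and 1825 on the adult arrays (-1.98 ± 0.25, adjusted p = 6.31e-05).

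Also among the 15 largest falls were the desmosomal cadherin Dsc3 (-2.03), the endocrine granule protein Resp18 (-2.32), the long noncoding RNA gene Mir99ahg (-2.12), the heat shock genes Hsph1 (-2.18) and Dnajb1 (-2.03), Klk1b7-ps (-2.12) and Scgb2b27 (-2.83). Klk1b7-ps and Scgb2b27 belong to families of near-identical kallikrein and secretoglobin genes, so their probes may read more than 1 gene. Mir99ahg read 71.6, 73.3 and 137 on the perinate arrays, against 459.7, 362 and 358 on the adult arrays, and 13 of 19 let-7 family and linked microRNA genes on the array lay below the 40th percentile on all 6 arrays, while 5 passed the filter over all 17 arrays and were tested. In bulk cells such as these, fewer cells that express a gene and less RNA in each cell cannot be told apart.

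Most genes of MHC class II presentation did not pass the test. The class II molecules themselves did not pass the test: H2-Aa (0.04), H2-Ab1 (-0.12), H2-Eb1 (0.01) and the invariant chain Cd74 (0.02) stayed within 0.12 of 0 on the log2 scale. Among 20 class II genes tested, 5 fell and 2 rose (3 fell without adult array 7 or perinate array 6, and 1 rose without adult array 7 or 8 or perinate array 5 or 6). H2-Ob and H2-Oa encode the 2 chains of H2-O, which restrains peptide exchange by H2-M. H2-Ob read 675, 538 and 725 on the perinate arrays, against 1338, 1677 and 1259 on the adult arrays (-1.14 ± 0.16, adjusted p = 1.75e-04). H2-Oa read 2408, 2196 and 2389 on the perinate arrays, against 3351, 3597 and 3799 on the adult arrays (-0.62 ± 0.12, adjusted p = 0.00218). Neither gene's arrays overlapped between the ages. Ciita, the master activator of class II transcription, read 712, 709.8 and 1069 on the perinate arrays, against 1194, 1661 and 1463 on the adult arrays (-0.81 ± 0.23, adjusted p = 0.0187), a call lost without any 1 of 4 arrays (perinate 5 or 6, adult 7 or 8). Marchf8, a ubiquitin ligase that removes class II and costimulatory molecules from the surface, fell (-0.79 ± 0.17, adjusted p = 0.00285), as did Rfx5, a subunit of the factor that binds class II promoters (-0.40 ± 0.13, adjusted p = 0.0316), whose call was lost without adult array 7 or perinate array 5 or 6. The rises were in endosomal enzymes. Ctsl, the cathepsin that cortical epithelium uses to make class II peptides, read 4833, 3887 and 2575 on the perinate arrays, against 2405, 1902 and 1875 on the adult arrays (0.83 ± 0.23, adjusted p = 0.0174), a call lost without the same 4 arrays as that of Ciita (adjusted p between 0.0505 and 0.0882). Ifi30, the thiol reductase of endosomes, read 8036, 6786 and 7009 on the perinate arrays, against 5003, 5393 and 5494 on the adult arrays (0.46 ± 0.11, adjusted p = 0.00649). The median of the list was -0.03, beside 0.0 over all genes.

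For MHC class I, 7 of 16 genes fell and none rose, with a list median of -0.29. All 3 inducible subunits of the immunoproteasome were among them: Psmb8 read 276, 423 and 314 on the perinate arrays, against 555, 623 and 569 on the adult arrays (-0.81 ± 0.13, adjusted p = 4.59e-04), Psmb9 read 484, 615 and 454 on the perinate arrays, against 804, 859 and 912 on the adult arrays (-0.74 ± 0.14, adjusted p = 0.00147), and Psmb10 fell by less (-0.53 ± 0.14, adjusted p = 0.0144). The proteasome activator subunit Psme1 (-0.42), the peptide transporter subunit Tap2 (-0.51), the loading factor Tapbpl (-0.48) and the lipid-presenting Cd1d1 (-0.83) made up the rest. Tap1 (-0.23) and B2m, the light chain of class I (-0.04), did not pass the test. The count of class I genes that fell ran from 4 to 8 under the other settings tried. The call of Psmb10 was lost without adult array 8 or perinate array 5, and that of Tapbpl without either or adult array 7.

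Signals to T cells were likewise lower where they passed the test. Of 19 costimulation and survival genes, 5 fell and none rose: Cd70 (-0.86), the ligand of CD27, which supports regulatory T cell precursors; Tnfrsf14 (-0.79), the receptor HVEM; Pdcd1lg2 (-0.71), the PD-1 ligand PD-L2; and the cytokines Il15 (-0.58) and Tslp (-0.57). Cd70 read 229, 254 and 247 on the perinate arrays, against 465, 409 and 454 on the adult arrays (-0.86 ± 0.16, adjusted p = 0.00145). Cd80 (-0.02) and Cd86 (-0.34), the ligands of CD28, did not pass. Among 16 chemokine genes, 5 fell and none rose; 2 fell without perinate array 7, 3 without perinate array 5 or any 1 adult array, and up to 6 under the other settings. Xcl1, which draws XCR1+ dendritic cells into the medulla and is reported as Aire-dependent in mice, read 145, 226 and 174 on the perinate arrays, against 358, 328 and 362 on the adult arrays (-0.97 ± 0.14, adjusted p = 1.88e-04). Ccl20, the CCR6 ligand, read 509.8, 825 and 477 on the perinate arrays, against 1248, 1386 and 1442 on the adult arrays (-1.21 ± 0.33, adjusted p = 0.0155). Ccl17, a CCR4 ligand, read 509.8, 731 and 746 on the perinate arrays, against 1159, 1258 and 1533 on the adult arrays (-1.0 ± 0.20, adjusted p = 0.002). Each of these 3 chemokine genes had separate arrays. Ccl2 (-0.68) fell by less, and the CCR7 ligand Ccl19 (-0.31) passed with all arrays but not without any 1 of the 6. Left out singly, adult arrays 6 and 7 and perinate arrays 6 and 7 each ended the call of Ccl2, and adult array 8 and perinate arrays 5 and 7 that of Ccl20. The call of Il15 was lost without adult array 7 or 8 or perinate array 5, and that of Tslp without perinate array 5.

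**Figure D2:**
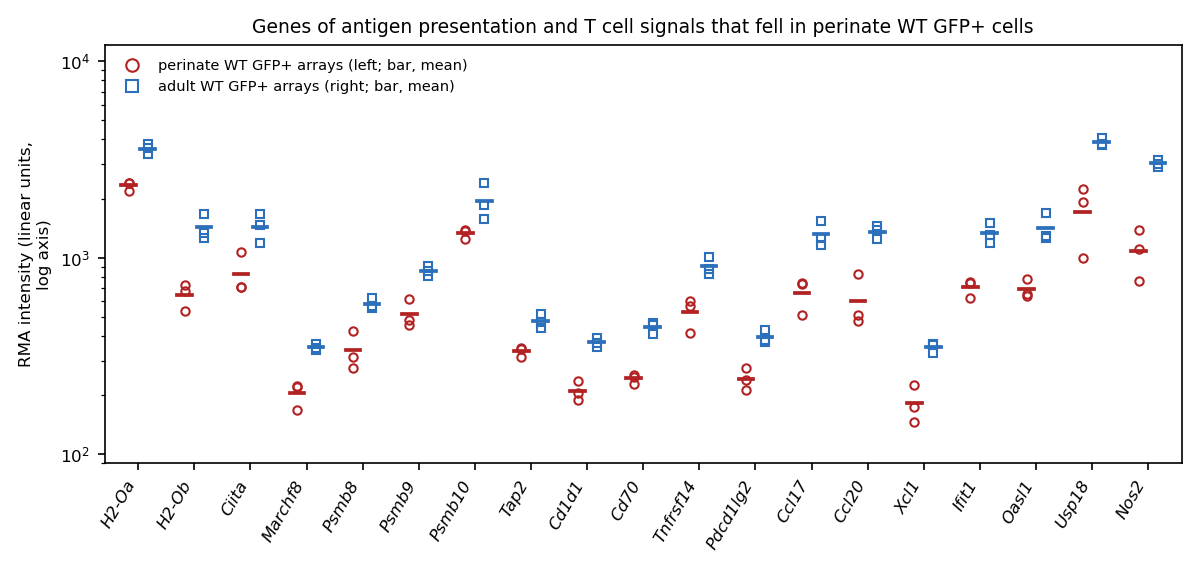
RMA intensity (linear units, log axis) of 19 genes of antigen presentation, costimulation, chemokines and innate response that fell in perinate WT GFP+ cells; circles on the left are the 3 perinate arrays, squares on the right the 3 adult arrays, bars the means. In every pair the circles lie below the squares, as for H2-Ob with 538 to 725 on perinate arrays and 1259 to 1677 on adult arrays.

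The share of interferon-induced genes that fell was near that of all genes. Among 27 tested, 5 fell (18.5%, beside 13.6% of all genes) and none rose (median -0.26): Usp18, which shuts off interferon receptor signalling (-1.25 ± 0.22, adjusted p = 7.34e-04); Oasl1 (-1.02 ± 0.18, adjusted p = 0.00104); Ifit1, which binds foreign RNA caps (-0.91 ± 0.19, adjusted p = 0.00336); Trim30a (-0.82 ± 0.21, adjusted p = 0.00999); and the nucleic acid sensor Zbp1 (-0.63 ± 0.17, adjusted p = 0.0148). Usp18 read 991, 1926 and 2231 on the perinate arrays, against 3722, 3801 and 4043 on the adult arrays, and Ifit1 read 626, 744 and 753 on the perinate arrays, against 1310.1, 1189 and 1506 on the adult arrays. Mx1 (-0.03) and Irf7 (0.04) lay near 0 and did not pass. Under the other settings 4 to 7 genes of this list fell and up to 5 rose, the 5 with the replicate block; Zbp1 lost its call without adult array 7 or 8 or perinate array 5. The interferon genes themselves were dim: 3 of 6 lay below the 40th percentile on all arrays and none of the 3 tested passed. RefSeq promoters of the GRCm38.p6 build were matched for 20 of the 27 genes. The core of the interferon-stimulated response element (GAAA, any 2 bases, GAAA) stands on either strand in the 250 bases before the start of 10 of these 20, 2 of them among the 3 called genes with a promoter (Ifit1 and Trim30a), and in 2.98% of all 32851 promoters. Here and below, a gene was counted if any of its promoters held the motif, whereas the share is over promoters counted singly. The stretch from Ifit1 at chr19:34640739-34640888 (plus strand), the last 150 bases before its start, is shown because it holds 2 copies, both in capitals and both on the opposite strand:
Ifit1: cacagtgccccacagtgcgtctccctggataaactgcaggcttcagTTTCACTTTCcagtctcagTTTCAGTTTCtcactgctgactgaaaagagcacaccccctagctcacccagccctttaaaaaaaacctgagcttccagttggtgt

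Innate defence and inflammatory genes were read next. Of 13 complement and defence genes, 5 fell and none rose (2 without adult array 8, 3 without adult array 7 or perinate array 7, up to 6 under the other settings). Nos2, the inducible nitric oxide synthase, read 765, 1378 and 1111 on the perinate arrays, against 3144, 3008 and 2909 on the adult arrays (-1.52 ± 0.19, adjusted p = 4.51e-05), with no overlap. Saa3, an acute phase protein, fell (-1.27 ± 0.34, adjusted p = 0.0142), and so did complement factor Cfb (-1.04 ± 0.17, adjusted p = 4.91e-04), the protease inhibitor Slpi (-0.55) and the endotoxin coreceptor Cd14 (-0.55). Of 19 genes of NF-kB and TNF receptor signalling, 4 fell (2 without adult array 6): Tnf (-1.15 ± 0.30, adjusted p = 0.0121), Traf2 (-0.80 ± 0.11, adjusted p = 1.24e-04), the kinase gene Map3k14 that starts the noncanonical pathway (-0.50) and Traf1 (-0.58). Tnf read 211, 364 and 251 on the perinate arrays, against 882, 453 and 529.6 on the adult arrays, and without adult array 6 its difference was -0.87 ± 0.31, adjusted p = 0.0637. Traf1 did not pass without adult array 6, nor Tnf without perinate array 5. Saa3 did not pass without adult array 8 or perinate array 7, Slpi without adult array 7 or 8 or perinate array 6, and Cd14 without adult array 7 or 8 or perinate array 5 or 7. The subunits Relb (-0.24) and Nfkb2 (0.01) did not pass the test.

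Part of the cell cycle genes rose in perinate cells, most by less than 1 on the log2 scale. Of 35 genes of DNA replication and S phase, 12 rose and none fell, with a median of 0.32. E2f8, a repressor of the E2F family that is itself induced in S phase, read 359, 353 and 389 on the perinate arrays, against 198, 155 and 181 on the adult arrays (1.05 ± 0.15, adjusted p = 1.46e-04). E2f1, an activator of the family, read 249.7, 297 and 302 on the perinate arrays, against 172, 147 and 195 on the adult arrays (0.73 ± 0.16, adjusted p = 0.00347). Rrm1 (0.63) and Rrm2 (0.65) encode the enzyme that makes deoxynucleotides, Tk1 (0.62) thymidine kinase, Cdc45 (0.42) and Mcm4 (0.51), Mcm5 (0.54) and Mcm7 (0.42) parts of the replicative helicase, Chaf1a (0.33) and Chaf1b (0.52) the histone chaperone CAF-1, and Uhrf1 (0.59) the factor that brings Dnmt1 to new DNA. Perinate array 6 was the highest of the 3 perinate arrays for 9 of these 12 genes. The count of S-phase genes that rose was 7 without perinate array 6 and ran up to 18 under the other settings tried. It was also 7 when only the 6 WT GFP+ arrays were fitted, where Mcm4, Mcm7, Chaf1a, Chaf1b and Uhrf1 lost the call. Without perinate array 6, Rrm1, Mcm4, Mcm7, Chaf1b and Uhrf1 lost it. Mcm4, Mcm7 and Uhrf1 also did without adult array 7 or 8, Chaf1b without adult array 6 or 7, and Chaf1a without adult array 8. So did Mcm4 and Uhrf1 without perinate array 7.

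Of 34 mitosis genes, 7 rose and none fell (median 0.36; 3 without adult array 6, 4 without perinate array 6, up to 18 under the other settings). Foxm1, the transcription factor of the mitotic programme, read 313, 425 and 327 on the perinate arrays, against 224, 197 and 227 on the adult arrays (0.71 ± 0.17, adjusted p = 0.00679). Aurkb, the kinase of the chromosomal passenger complex, read 735, 944 and 907 on the perinate arrays, against 512, 637 and 626 on the adult arrays (0.54 ± 0.14, adjusted p = 0.00944). Ccnb2 (0.67), Kif23 (0.69), Nusap1 (0.59), Cdca3 (0.50) and Cenpe (0.40) also rose. Of these, Ccnb2 did not pass without adult array 6 or perinate array 7, Cdca3 without adult array 6 or perinate array 6, Kif23 without adult array 6 or 7 or perinate array 6 or 7, and Cenpe without any 1 of these or adult array 8. Mki67, the usual marker of cycling cells, did not pass the test (0.35 ± 0.14, adjusted p = 0.0872). Among 19 cell cycle inhibitors and p53 targets, 4 fell and none rose (2 fell without adult array 6 or perinate array 5). Cdkn2c, the CDK4 and CDK6 inhibitor p18, had the clearest fall, with 117, 165 and 153 on the perinate arrays, against 478, 574 and 566 on the adult arrays (-1.91 ± 0.13, adjusted p = 1.48e-07). Phlda3 (-0.89 ± 0.17, adjusted p = 0.00182), Cdkn1b (-0.32), which encodes p27, and Gadd45a (-0.54) fell too. The call of Cdkn1b was lost without any 1 array but perinate array 7, and that of Gadd45a without adult array 6 or any 1 perinate array.

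E2F proteins bind near the letters TTTGGCGC or TTTCGCGC. Promoters were matched for 30 of the 35 replication genes, and either form stands on either strand in the 250 bases before the start of 5 of them (Mcm5 and Uhrf1 among the called genes; Mcm6, Pola1 and Rfc3 among those not called), and in 0.654% of all promoters. Mcm5 is shown as a called member with the first form, in capitals and on the opposite strand, at chr8:75109359-75109508 (plus strand, the last 150 bases before the start):
Mcm5: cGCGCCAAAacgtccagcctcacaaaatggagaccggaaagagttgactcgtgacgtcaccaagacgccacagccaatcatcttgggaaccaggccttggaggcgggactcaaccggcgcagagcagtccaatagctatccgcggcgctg

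Cholesterol synthesis genes moved in one direction. Of the 14 genes tested, 12 rose and none fell, with a median of 0.86, and on all 14 genes the perinate arrays lay above the adult arrays. Fdps, which makes farnesyl diphosphate, read 1435, 1321 and 988 on the perinate arrays, against 412, 506 and 605 on the adult arrays (1.30 ± 0.18, adjusted p = 1.36e-04). Insig1, the sterol sensor that holds SREBP in the endoplasmic reticulum and is itself an SREBP target, read 1532, 1258 and 1124 on the perinate arrays, against 656, 520.0 and 515 on the adult arrays (1.21 ± 0.21, adjusted p = 6.80e-04). Cyp51 (1.19 ± 0.24, adjusted p = 0.00227) and Msmo1 (1.18 ± 0.18, adjusted p = 2.83e-04) demethylate lanosterol and its products. Fdft1, squalene synthase, read 2098, 2201 and 2194 on the perinate arrays, against 1072, 893 and 1171 on the adult arrays (1.06 ± 0.15, adjusted p = 1.36e-04) and did not overlap. Hmgcs1, which makes HMG-CoA, read 1563, 1716 and 1249 on the perinate arrays, against 888, 742 and 844 on the adult arrays (0.86 ± 0.16, adjusted p = 0.00111). Idi1 (0.89), Lss (0.86), Nsdhl (0.82), Sc5d (0.48), the sterol carrier Stard4 (0.72) and Srebf2, the transcription factor of the pathway (0.48), completed the 12. Sqle (0.38 ± 0.13, adjusted p = 0.0507) and Dhcr7 (0.30 ± 0.14, adjusted p = 0.123) did not pass. Between 12 and 14 genes rose under every other setting tried.

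Sterol-responsive promoters pair an SREBP site with CCAAT boxes, bound by NF-Y. Promoters were matched for 10 of the 14 genes. CCAAT stands on either strand in the 250 bases before the start of all 10 (9 called genes and Dhcr7). Of all promoters, counted singly, 33.9% hold it. TCACNCCAC, a form of the sterol regulatory element, stands in 1 of the 10, Hmgcs1, and in 1.05% of all promoters. The stretch at chr13:119690201-119690350 (plus strand, the last 150 bases before the start of Hmgcs1) is shown since it holds both, in capitals, the CCAAT box on the opposite strand:
Hmgcs1: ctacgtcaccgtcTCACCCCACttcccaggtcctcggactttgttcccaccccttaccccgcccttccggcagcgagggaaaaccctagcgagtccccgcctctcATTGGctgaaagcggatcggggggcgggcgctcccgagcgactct

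**Figure D3:**
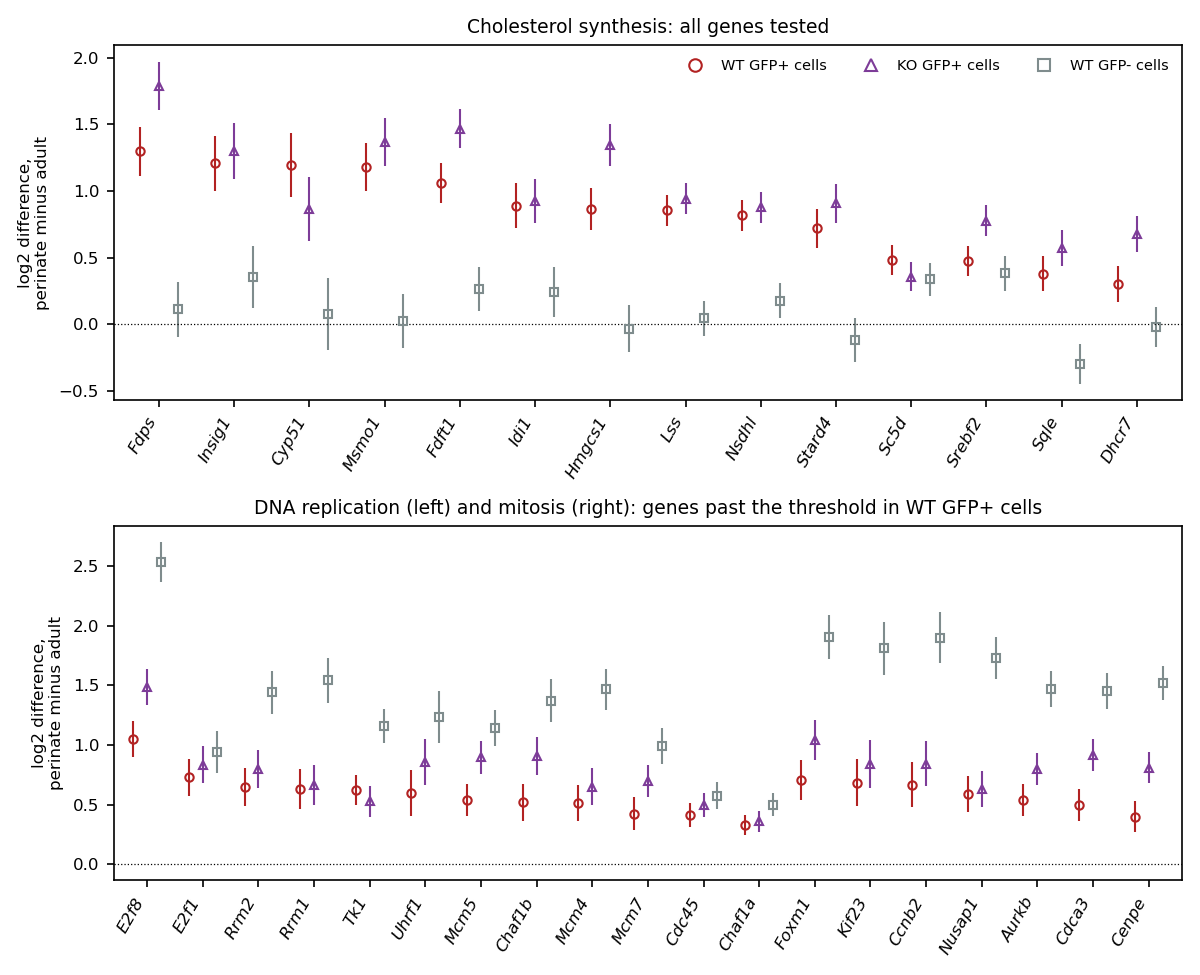
Log2 difference, perinate minus adult, with its standard error, of all 14 cholesterol synthesis genes tested (top) and of the replication and mitosis genes past the threshold in WT GFP+ cells (bottom), in WT GFP+ (circles), KO GFP+ (triangles) and WT GFP- cells (squares). Fdps stood at 1.30 in WT GFP+ cells, 1.79 in KO GFP+ cells and 0.11 in GFP- cells, whereas E2f8 stood at 1.05, 1.49 and 2.54.

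Imprinted genes that passed the test were all higher in perinate cells. Of 15 imprinted and fetal growth genes tested, 8 rose and none fell. Peg3 read 551, 515 and 658 on the perinate arrays, against 213, 181 and 189.8 on the adult arrays (1.56 ± 0.13, adjusted p = 1.44e-06). Grb10, an adaptor that restrains insulin and IGF receptor signalling, read 883, 1089.8 and 884 on the perinate arrays, against 388, 423 and 392 on the adult arrays (1.24 ± 0.12, adjusted p = 8.42e-06). Nnat, neuronatin, read 799, 869 and 708 on the perinate arrays, against 356, 386 and 363 on the adult arrays (1.10 ± 0.17, adjusted p = 2.76e-04). Mest read 314, 252 and 227 on the perinate arrays, against 177, 132 and 135 on the adult arrays (0.84 ± 0.18, adjusted p = 0.00317). In none of these 4 imprinted genes did the ages overlap. Meg3, a maternally expressed noncoding RNA, was dim (113, 85.4 and 107 on the perinate arrays, against 57.8, 62.6 and 56.8 on the adult arrays) but rose (0.78 ± 0.18, adjusted p = 0.00607). Phlda2 (0.66), Sgce (0.45) and Igf2r (0.38) rose by less. Sgce lay below the 40th percentile on all 6 arrays, and its call was lost without adult array 6 or 8 or perinate array 5 or 6. That of Phlda2 was lost without adult array 7 or 8 or perinate array 5, and that of Igf2r without adult array 7. Igf2 itself did not pass (0.23 ± 0.23, adjusted p = 0.5). Igf2bp3, a fetal RNA-binding protein held down by let-7, read 119, 119 and 113 on the perinate arrays, against 64.2, 70.6 and 63.7 on the adult arrays (0.82 ± 0.14, adjusted p = 4.95e-04), the only one of 9 fetal RNA-binding and chromatin genes to pass. Of 14 DNA methylation and Polycomb genes, 4 rose (2 without adult array 7 or 8 or perinate array 6 or 7): the de novo methyltransferases Dnmt3a (0.43 ± 0.11, adjusted p = 0.011) and Dnmt3b (0.50 ± 0.10, adjusted p = 0.00163), Tet3 (0.42) and Uhrf1. The call of Tet3 was lost without any 1 of the 6 arrays, and that of Uhrf1 without any of those 4.

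Of 12 factors that build the thymus in the embryo, 4 rose (33.3%, beside 8.52% of all genes) and 1 fell. Besides Fgfr2, Eya1, a coactivator needed for thymus formation in mice, read 1738, 1878 and 2153 on the perinate arrays, against 1059.6, 931 and 1066 on the adult arrays (0.91 ± 0.12, adjusted p = 1.08e-04). Pax1, a pharyngeal pouch factor, read 612, 542 and 709 on the perinate arrays, against 409, 396 and 433 on the adult arrays (0.58 ± 0.13, adjusted p = 0.00485). Bmp4 rose (0.63) and the homeobox gene Isl1 fell (-0.52), a call that was lost in 7 of its 15 other settings, without adult array 6 (-0.34 ± 0.17, adjusted p = 0.168) or 7 or perinate array 5 or 6 among them. Bmp4 did not pass without perinate array 7. Foxn1, the master factor of thymic epithelium, did not pass (-0.27 ± 0.23, adjusted p = 0.431).

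Among 17 regulators of medullary cells, 4 fell and none rose, with a median of -0.09; without adult array 6 or 7, 2 fell. Fezf2 read 2269.6, 2604 and 3417 on the perinate arrays, against 3632, 4269 and 4312 on the adult arrays (-0.58 ± 0.16, adjusted p = 0.0147), with no overlap; the call was lost without adult array 7 or 8 or perinate array 5 (adjusted p between 0.0554 and 0.075) and with the replicate block (0.0927). Irf8, a factor reported downstream of RANK signals in mice, read 1099.8, 1149 and 1512 on the perinate arrays, against 2338, 2246 and 2598 on the adult arrays (-0.95 ± 0.17, adjusted p = 0.00103). Irf4 (-0.59 ± 0.19, adjusted p = 0.0357) and Elf3 (-0.77 ± 0.19, adjusted p = 0.00931) fell too, and without adult array 6 their differences were -0.45 ± 0.21, adjusted p = 0.144 and -0.54 ± 0.18, adjusted p = 0.05015; the call of Irf4 was also lost without adult array 7 or perinate array 5. The receptors Tnfrsf11a, which encodes RANK (-0.01), Cd40 (-0.30) and Ltbr (0.17) did not pass. Of 18 proteins reported to assist Aire, Mbd1 (0.48 ± 0.10, adjusted p = 0.00214) and Top2b (0.38) rose and Sirt1 (-0.69) fell. The calls of Top2b and Sirt1 were lost without any 1 of the 6 arrays.

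Genes that mark other thymic epithelial states gave a mixed picture. Of 14 cortical genes, 4 fell: Ly75, the endocytic receptor DEC-205, read 199, 275 and 195 on the perinate arrays, against 472, 495 and 448 on the adult arrays (-1.10 ± 0.13, adjusted p = 2.68e-05); Dll4, the Notch ligand that starts T cell fate, read 249, 230.1 and 297 on the perinate arrays, against 542, 552 and 456 on the adult arrays (-1.0 ± 0.12, adjusted p = 3.34e-05); Tbata read 3039, 2396 and 2471 on the perinate arrays, against 5116, 5761 and 5415 on the adult arrays (-1.05 ± 0.19, adjusted p = 0.00102); and Kitl fell (-0.69 ± 0.13, adjusted p = 0.00122). Only Ctsl and Pax1 of that list rose, and Psmb11, the defining subunit of the cortical thymoproteasome, lay near the dim range at both ages (117, 108 and 108 on the perinate arrays, against 93.5, 101 and 109.5 on the adult arrays). Of 13 genes of basal and immature medullary cells, Lifr and Pdpn rose and Pigr fell. Pdpn, podoplanin, read 614, 1003 and 781 on the perinate arrays, against 421, 351 and 378 on the adult arrays (1.04 ± 0.23, adjusted p = 0.00406). Pigr, the receptor that carries IgA across epithelia, read 90.4, 162 and 96.4 on the perinate arrays, against 281, 319 and 509.8 on the adult arrays (-1.67 ± 0.26, adjusted p = 3.10e-04). Ccl21a was not matched on the array, and Krt14 (0.25 ± 0.24, adjusted p = 0.501) did not pass.

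In most lists of genes of peripheral organs, the self-antigens that medullary cells display, more members fell than rose in perinate cells. Among 24 liver genes tested, 18 fell and 1 rose (median -0.58), and the count that fell ran from 11 (without adult array 7) to 18 under the other settings. Tdo2, the tryptophan dioxygenase of hepatocytes, read 131, 270.1 and 203 on the perinate arrays, against 563, 724 and 681 on the adult arrays (-1.76 ± 0.22, adjusted p = 6.27e-05). Trf, transferrin, read 663, 607 and 492 on the perinate arrays, against 1523, 1632 and 1602 on the adult arrays (-1.44 ± 0.13, adjusted p = 3.17e-06). Apoc3, a lipoprotein component, read 301, 319 and 401 on the perinate arrays, against 933, 936 and 1141 on the adult arrays (-1.57 ± 0.21, adjusted p = 1.09e-04). Hamp, the iron hormone hepcidin, read 643, 1222 and 1501 on the perinate arrays, against 2722, 2585 and 2437 on the adult arrays (-1.29 ± 0.26, adjusted p = 0.00234). Alb, albumin, read 159, 158 and 124 on the perinate arrays, against 233, 281 and 316 on the adult arrays (-0.91 ± 0.17, adjusted p = 0.00129). For these 5 liver genes every perinate array lay below every adult array. Serpinc1, antithrombin, was the member that rose, with 897, 817 and 906 on the perinate arrays, against 554, 584 and 603 on the adult arrays (0.59 ± 0.16, adjusted p = 0.0153).

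Of 28 stomach and gut genes, 14 fell and 2 rose (median -0.45). Hnf4g, a nuclear receptor of intestinal epithelium, read 148, 185 and 198 on the perinate arrays, against 469, 517 and 545 on the adult arrays (-1.54 ± 0.19, adjusted p = 5.02e-05). Vil1, the actin bundler of microvilli, read 113, 132 and 129 on the perinate arrays, against 257, 312 and 322 on the adult arrays (-1.25 ± 0.12, adjusted p = 5.55e-06). Fabp2, the intestinal fatty acid binding protein, read 49.8, 47.9 and 45.0 on the perinate arrays, against 112, 133 and 94.5 on the adult arrays (-1.24 ± 0.14, adjusted p = 2.32e-05). Every perinate array of Fabp2 lay in the dim range, as did the lowest adult array. Apoa4, made by enterocytes, read 910.4, 1123 and 1058 on the perinate arrays, against 2145, 2455 and 2352 on the adult arrays (-1.17 ± 0.16, adjusted p = 1.16e-04). The mucin genes Muc1 (-1.17) and Muc13 (-0.93), all 3 trefoil factors, Tff1 (-0.61), Tff2 (-0.46) and Tff3 (-0.82), and the pepsinogen gene Pgc (-0.75) fell. Anpep (0.53) and Muc6 (0.41) rose, and neither did without adult array 6 or perinate array 7, nor Muc6 without adult array 8 or perinate array 5.

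In smaller organ lists most members that passed the test fell. Of 10 salivary and lacrimal gland genes, 6 fell and 1 rose, the largest fall in Dcpp1 (-1.08 ± 0.17, adjusted p = 3.84e-04); Dcpp1, Dcpp2 and Dcpp3 are near-identical and cannot be counted as separate. Of 20 neuroendocrine genes, 9 fell and none rose (5, without perinate array 6, to 10 under the other settings), among them the peptide genes Grp, with 1387, 1408 and 1072 on the perinate arrays, against 2684, 2458 and 2668 on the adult arrays (-1.02 ± 0.16, adjusted p = 3.61e-04), and Nts, with 114, 165 and 148 on the perinate arrays, against 241, 336 and 312 on the adult arrays (-1.06 ± 0.19, adjusted p = 9.58e-04). Of 12 genes of the exocrine pancreas, 5 fell and none rose, with Reg1 (-1.29 ± 0.33, adjusted p = 0.0104) and Spink1 (-1.28 ± 0.23, adjusted p = 9.89e-04) the lowest. Gcg, glucagon, fell (-0.97 ± 0.18, adjusted p = 0.00145), while the insulin gene Ins2 did not pass (-0.25 ± 0.19, adjusted p = 0.355). Of 14 airway and lung genes, 5 fell (3 without adult array 8 or perinate array 5 or 7), and of 5 milk and seminal vesicle genes, 3 fell.

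Skeletal muscle differed in direction. Of its 15 genes, 6 rose and 2 fell (median 0.22). Myl1, a myosin light chain, read 91.7, 86.6 and 176 on the perinate arrays, against 51.7, 49.6 and 45.2 on the adult arrays (1.20 ± 0.22, adjusted p = 0.00104). Chrnd, the delta subunit of the acetylcholine receptor, read 173, 119.5 and 146 on the perinate arrays, against 85.7, 89.9 and 100.4 on the adult arrays (0.66 ± 0.13, adjusted p = 0.00157). Myod1, the muscle determination factor, read 191, 136 and 156 on the perinate arrays, against 116, 112 and 111 on the adult arrays (0.50 ± 0.12, adjusted p = 0.00639). Mybpc2 (0.54), Tnni2 (0.34) and Ryr1 (0.33) also rose, Mybpc2 not without adult array 7 and Ryr1 not without adult array 6 or 7 or perinate array 5. All 6 genes that rose read below 200 on every array, so the differences are between low levels, and the count that rose ran from 1 to 6 under the other settings. Des (-0.97 ± 0.15, adjusted p = 2.82e-04) and Ckm (-0.41) fell.

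Genes named for the factor that drives them fell or did not pass. Of 11 genes often cited as Aire-induced, 5 fell (Fabp2, Pcp4, Csn1s1, Tff3 and Sst) and none rose, with a median of -0.44 (3 fell without adult array 7), while Aire itself did not pass the test. The call of Sst was lost without any 1 array but perinate array 5, and that of Csn1s1 without perinate array 5. Of 7 genes reported as Fezf2-dependent, 6 fell: Fabp9, Apoc3, Ttr, Maoa, Apob and Krt10. Their median was -0.86, and Krt10 did not pass without adult array 8. Ttr, transthyretin, read 103, 130.5 and 115 on the perinate arrays, against 202, 190.4 and 331 on the adult arrays (-1.01 ± 0.18, adjusted p = 0.00106). Maoa, monoamine oxidase A, read 119, 116 and 89.9 on the perinate arrays, against 204, 178 and 202 on the adult arrays (-0.86 ± 0.21, adjusted p = 0.00895). Nol4, the remaining gene, lay near 0 (-0.06). The 5 Aire-induced genes that fell also belong to the organ lists, and Apoc3, Ttr and Apob to the liver list. Counts of these lists are therefore not separate.

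**Figure D4:**
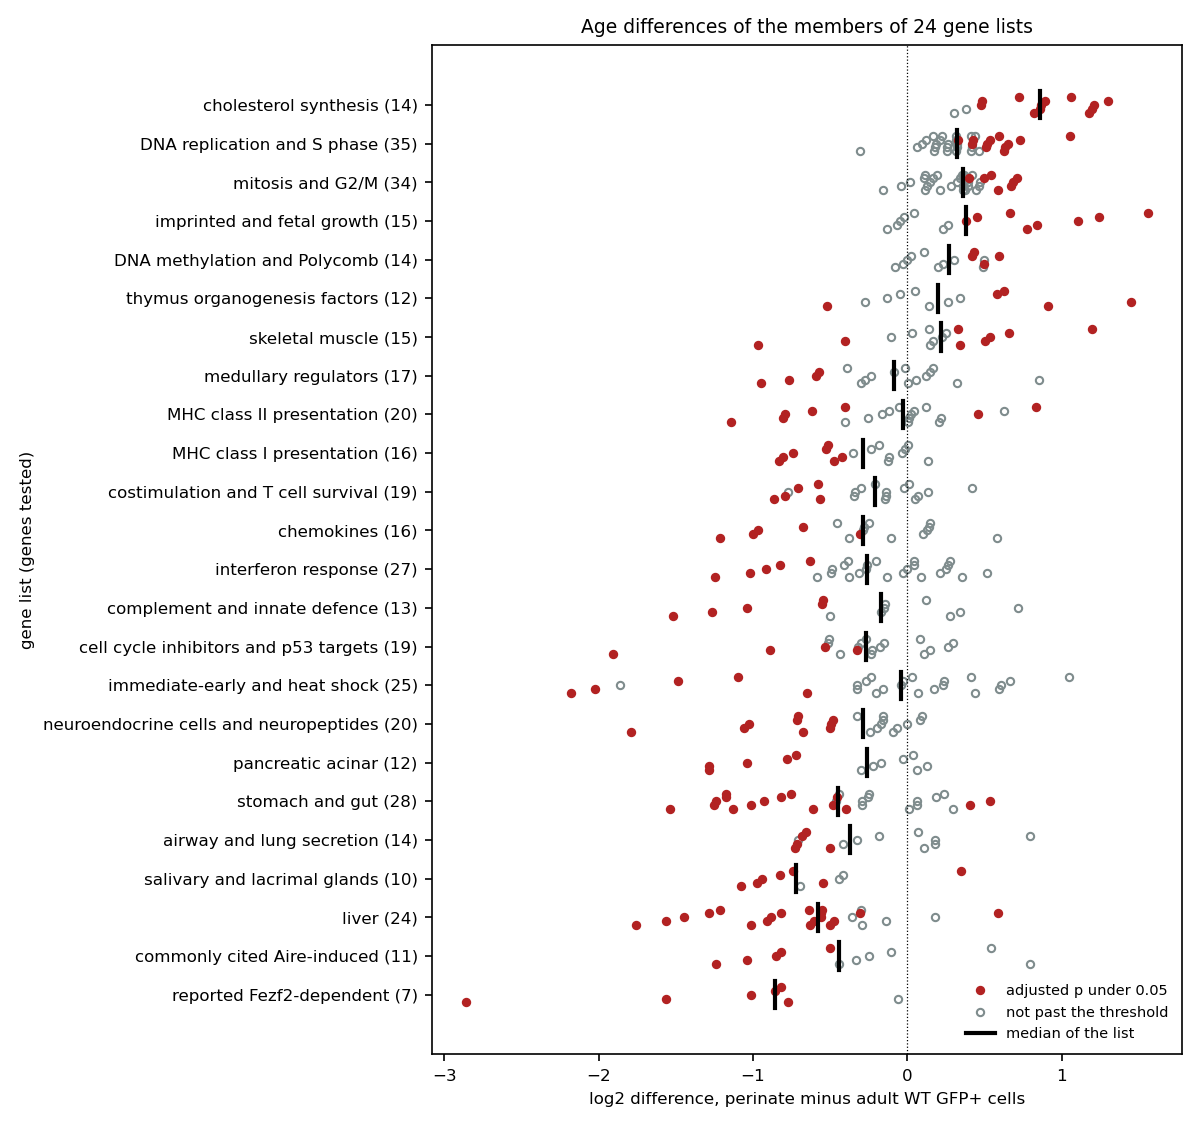
Log2 difference, perinate minus adult WT GFP+ cells, of each gene tested in 24 lists (number of genes in brackets); filled points passed an adjusted p under 0.05, open points did not, and vertical bars are list medians. Cholesterol synthesis lies furthest right (median 0.86) and the Fezf2-dependent list furthest left (median -0.86).

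The heat shock genes that fell were highest on adult array 6. Hsph1, a chaperone of the HSP110 family, read 674, 372 and 656 on the perinate arrays, against 4522, 1782 and 1895 on the adult arrays (-2.18 ± 0.52, adjusted p = 0.00722). Dnajb1, a cochaperone of HSP70, read 859, 549 and 754 on the perinate arrays, against 4040.0, 2194 and 2705 on the adult arrays (-2.03 ± 0.33, adjusted p = 4.72e-04). Without adult array 6, the differences were -1.75 ± 0.55, adjusted p = 0.038 for Hsph1 and -1.78 ± 0.36, adjusted p = 0.00327 for Dnajb1. Hsp90aa1 (-1.10 ± 0.21, adjusted p = 0.00132) and Jun (-0.65 ± 0.16, adjusted p = 0.00856) fell as well, and Hspb1 fell (-1.49 ± 0.47, adjusted p = 0.0311) but not without adult array 6 (-1.24 ± 0.52, adjusted p = 0.111) or 8 or perinate array 5 or 6. Hspa1a, the inducible HSP70, did not pass and varied widely among the perinate arrays (2428, 586 and 5350.3 on the perinate arrays, against 8225, 6357 and 7007 on the adult arrays).

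Markers of other cell types the gate could hold were also read. Of 13 fibroblast genes, 5 rose (3 without adult array 7 or 8 or perinate array 5, 2 among genes above the 60th percentile): Dcn, decorin, read 3759, 2906 and 3130.0 on the perinate arrays, against 1469, 1754 and 1512 on the adult arrays (1.04 ± 0.11, adjusted p = 1.34e-05); Lum, lumican, was dim (90.6, 52.1 and 62.4 on the perinate arrays, against 34.3, 27.2 and 31.7 on the adult arrays; 1.11 ± 0.18, adjusted p = 3.91e-04); and Col1a1 (0.48 ± 0.09, adjusted p = 0.002), Col1a2 (0.34) and Col5a1 (0.32) rose by less. Col1a2 did not pass without adult array 7 or 8 or perinate array 5, nor Col5a1 without any 1 array but perinate array 6. The summed intensity of these markers ran from 5382 to 6388 on perinate arrays and from 3923 to 4380 on adult arrays, and Pdgfra and Dpt lay below the 40th percentile on all 6. None of 8 thymocyte genes passed. Of 11 genes of dendritic cells and macrophages 2 fell, as did 2 of 7 endothelial genes and 1 of 3 B lineage genes (Igll1). The summed intensity of 6 B lineage genes ran from 1057 to 1178 on perinate arrays and from 1554 to 1593 on adult arrays. Whether RNA of these cells had a part in the genes that fell was not tested. The part of fibroblast RNA in the rise of matrix genes such as Vcan, Efemp1 and Fbn2 was not tested. In KO GFP+ cells, 2 of the 13 fibroblast genes rose and 4 fell in perinates (median -0.24). The age difference was more positive in WT than in KO cells for 3 of the 13 at an adjusted p under 0.05 (limma), beside 0.484% of all genes.

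Whether the age differences also occurred without Aire was read from the knockout GFP+ cells, which share no array with the WT comparison. There, 1850 genes rose (13.4%) and 1751 fell (12.6%) in perinates. Of the 1179 genes that rose in WT GFP+ cells, 648 rose in KO cells (55.0% of the WT list, 35% of the KO list) and 5 fell; of the 1888 that fell, 928 fell in KO cells (49.2% and 53%) and 14 rose. Across genes, the 2 sets of log2 differences correlated with r = 0.654. The difference between the comparisons passed the test for 167 genes (1.21%): 67 were more positive (0.484%) and 100 more negative (0.722%) in WT cells. Those counts ran from 18 to 78 and from 31 to 138 when 1 array was left out, and fell to 21 and 24 without perinate KO arrays 2 and 3, in which the Y-linked transcript Uty was far lower (19.2 and 16.1) than in array 1 (229).

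Several organ genes that fell in WT cells did so beyond their change in KO cells. Tdo2 read 111, 81.7 and 98.5 on the perinate knockout arrays, against 69.4, 89.0 and 52.2 on the adult knockout arrays. The ages overlapped there and the KO age difference did not pass (0.49, adjusted p = 0.119), while the difference between the comparisons was -2.25 ± 0.32, adjusted p = 0.00462. Cyp2j13, a cytochrome P450 gene, read 43.4, 59.0 and 59.2 on the perinate arrays, against 124, 139.7 and 135 on the adult arrays in WT cells, and 148, 151 and 134 on the perinate knockout arrays, against 91.3, 81.7 and 76.8 on the adult knockout arrays (difference -2.11 ± 0.21, adjusted p = 2.38e-04). Elobl read 142, 159.7 and 162 on the perinate arrays, against 401, 481 and 519 on the adult arrays in WT cells and at most 58.8 on any KO array (difference -1.73 ± 0.29, adjusted p = 0.00701). Tdo2, Cyp2j13 and Elobl all lay in the dim range on the adult KO arrays. For Tdo2 and Elobl a fall with age group could therefore not be read in KO cells. Whether their fall occurs without Aire was not tested. Cyp2j13 instead rose in perinate KO cells (0.80, adjusted p = 0.001, limma), opposite to its fall in WT cells. From the stomach and gut list, Fabp2 (-1.08), Tff3 (-1.05), Pgc (-0.91), Tff1 (-0.87) and Vil1 (-0.73) had such a difference, and from the liver list Tdo2, Cps1 (-0.99) and Apob (-0.95). Over the whole liver list, 4 genes fell and 2 rose in KO cells (median -0.03), and over the gut list 8 fell and 1 rose (median -0.22). The part of dim KO values in these counts and medians was not tested. Only the 3 liver and 5 gut genes just named passed the test of the difference itself. Outside these lists it also passed for the chemokine gene Xcl1 (-0.99 ± 0.20, adjusted p = 0.0251), Cdkn2c (-0.83 ± 0.18, adjusted p = 0.0333) and Dll4 (-0.72 ± 0.17, adjusted p = 0.0478). Without perinate KO arrays 2 and 3, the call was lost for Fabp2, Pgc, Tff1, Vil1, Cps1, Apob, Xcl1, Cdkn2c and Dll4 (adjusted p between 0.0626 and 0.246) and remained for Tdo2, Cyp2j13, Elobl and Tff3; that of Tff3 was lost in 16 of its 21 alternatives.

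For other genes the age difference was more negative in KO cells. Cxcl13, the chemokine that attracts B cells, read 2904, 2733 and 2722 on the perinate arrays, against 2384, 2601 and 2557 on the adult arrays in WT cells, and 244, 133 and 142 on the perinate knockout arrays, against 552, 605 and 319 on the adult knockout arrays (difference 1.66 ± 0.38, adjusted p = 0.0446). Ctla4, an inhibitory receptor of T cells, read 98.9, 61.8 and 62.7 on the perinate arrays, against 153, 171 and 156 on the adult arrays in WT cells, and 144, 163 and 163 on the perinate knockout arrays, against 1146, 1246 and 997 on the adult knockout arrays (difference 1.71 ± 0.33, adjusted p = 0.022). All 3 perinate WT arrays of Ctla4 lay in the dim range, so the full size of its WT fall could not be read. Nr1d1, the circadian repressor REV-ERB alpha, read 950.0, 831 and 779 on the perinate arrays, against 875, 561 and 629 on the adult arrays in WT cells, and 392, 231 and 216 on the perinate knockout arrays, against 1239, 878 and 688 on the adult knockout arrays (difference 2.08 ± 0.43, adjusted p = 0.0286). Without perinate KO arrays 2 and 3, the difference did not pass for any of these 3 genes (adjusted p = 0.316 for Cxcl13, 0.0985 for Ctla4 and 0.23 for Nr1d1). No cholesterol, S-phase or mitosis gene passed the test of a difference between WT and KO cells. In KO cells 26 of 35 S-phase and 27 of 34 mitosis genes rose (medians 0.56 and 0.59), beside 13.4% of all genes. In WT GFP+ cells 12 and 7 did (medians 0.32 and 0.36). These counts and medians were not tested against each other.

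Compared with GFP- cells of WT mice, the age differences of GFP+ cells were smaller for many genes. In GFP- cells 3065 genes rose (22.1%) and 3347 fell (24.2%) in perinates, from 2 perinate and 3 adult arrays. Of the genes that rose in GFP+ cells, 720 also rose in GFP- cells (61.1% of the GFP+ list, 23.5% of the GFP- list), and of those that fell, 1322 also fell (70.0% and 39.5%). The correlation across genes was r = 0.625. The difference between the comparisons passed for 2761 genes (19.9%), 1478 more positive (10.7%) and 1283 more negative (9.27%) in GFP+ cells. With every replicate number as a block, 894 were more positive and 564 more negative; with only the same-numbered adult GFP+ and GFP- arrays as pairs, a fit chosen after the data were seen, 1512 and 1304 were. Without perinate GFP- array 1, 836 were more negative.

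The rise in cholesterol synthesis genes was smaller in GFP- cells. There, 2 of its 14 genes rose, with a median of 0.09, and the difference between the comparisons passed for 9 of 14, all more positive in GFP+ cells, such as Fdps (1.19 ± 0.27, adjusted p = 0.00541), Msmo1 (1.16 ± 0.27, adjusted p = 0.00604) and Hmgcs1 (0.90 ± 0.24, adjusted p = 0.013; 0.0901 without perinate GFP- array 2). In KO GFP+ cells all 14 rose (median 0.92). Replication and mitosis showed the opposite relation: 31 of 35 and 32 of 34 genes rose in GFP- cells (medians 0.98 and 1.29), and 17 and 27 genes were more negative in GFP+ cells, for example E2f8 (-1.49 ± 0.22, adjusted p = 2.05e-04) and Foxm1 (-1.20 ± 0.25, adjusted p = 0.00279; 0.08 with every replicate number as a block).

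Tuft cell genes, which mark a chemosensory epithelial cell of the medulla, differed more between the ages in the GFP- fraction. Of 18 tuft cell genes, 16 fell in GFP- cells (median -1.69) and 2 in GFP+ cells (median -0.15), and 17 had a difference past the test. Trpm5, the cation channel of tuft cells, read 131, 149 and 121 on the perinate arrays, against 119, 108 and 121 on the adult arrays in GFP+ cells, and 408 and 201 on the perinate GFP- arrays, against 1506, 2152 and 2065 on the adult GFP- arrays (difference 2.92 ± 0.33, adjusted p = 1.73e-05). In GFP+ cells the 18 genes summed to between 2312.3 and 2541.1 on perinate arrays and between 2631.7 and 2909.5 on adult arrays. Trpm5 lay near the dim range there, and Gnat3, Chat and Bmx lay in it on every WT GFP+ array. A fall like that of GFP- cells could not be read for these genes in GFP+ cells. Lyz2, lysozyme, read 2912, 3664 and 3366 on the perinate arrays, against 5046, 5278 and 5255 on the adult arrays in GFP+ cells, and 199 and 196 on the perinate GFP- arrays, against 4502, 4659 and 3941 on the adult GFP- arrays (difference 3.81 ± 0.15, adjusted p = 1.42e-10). Fezf2 fell further in GFP- cells (-2.72 ± 0.17, adjusted p = 5.31e-09) than in GFP+ cells (difference 2.14 ± 0.23, adjusted p = 1.41e-05). Dsc3 showed the reverse, with 2426 and 2479 on the perinate GFP- arrays, against 1512, 1343 and 1996 on the adult GFP- arrays, against its clear fall in GFP+ cells (difference -2.65 ± 0.31, adjusted p = 2.16e-05). Cxcl12, a chemokine of cortical cells, and Ptprz1, a receptor phosphatase, rose in GFP- cells (2.88 and 3.60) and did not pass in GFP+ cells (0.13 and 0.23). Cxcl12 lay in the dim range on every WT GFP+ array, so a small age difference could not be read there. Its mean was 747 on perinate and 101.6 on adult GFP- arrays.

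**Figure D5:**
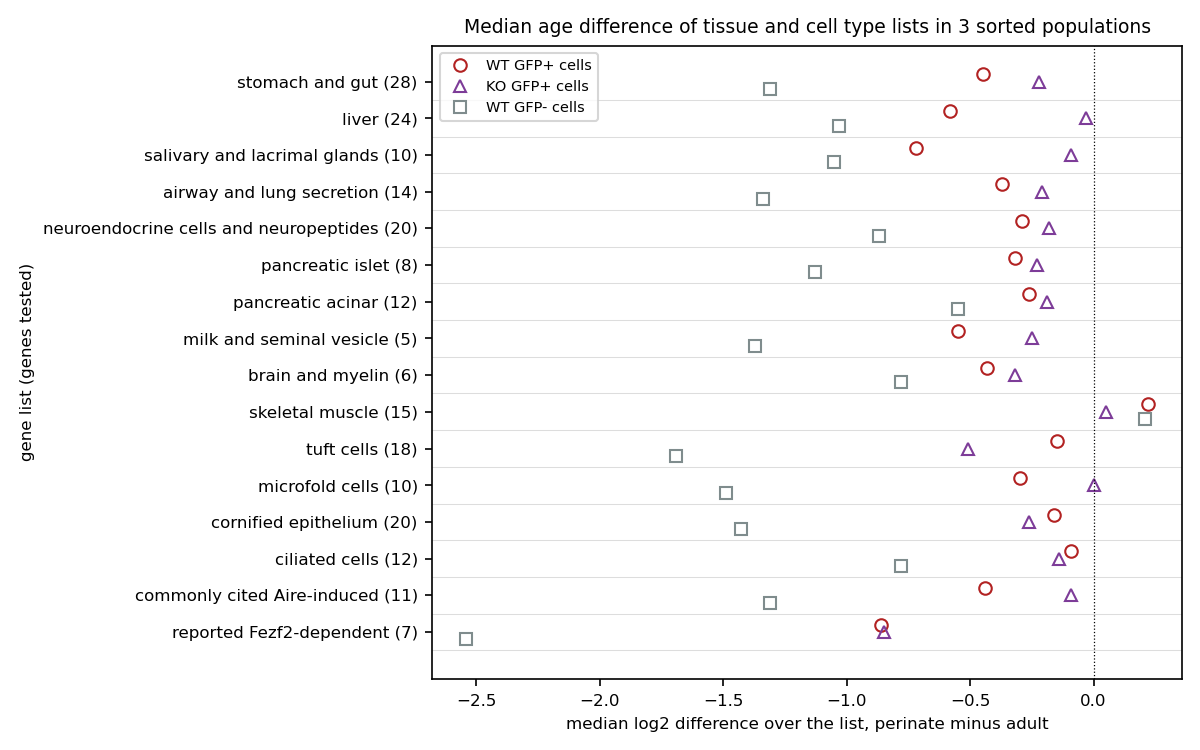
Median log2 difference, perinate minus adult, over the genes tested of 16 tissue and cell type lists in WT GFP+ (circles), KO GFP+ (triangles) and WT GFP- cells (squares). For liver the medians were -0.58 in WT GFP+ cells, -0.03 in KO GFP+ cells and -1.03 in GFP- cells; medians of lists were not tested against each other.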

How the data were processed

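The deposited table holds 1 intensity per probe set and array for 17 arrays, in linear units. The authors made it with RMA in Affymetrix Power Tools, per the submitters' processing notes. RMA corrects background and quantile-normalizes, which reduces overall differences between arrays. Array medians still ran from 144.5 to 157.1. Of 24922 probe sets, 21425 had 1 gene symbol, 1399 several and 2098 none in the platform annotation. The brightest single-symbol probe set stood for each of 19752 genes, and the 13842 genes above the 40th percentile of an array on at least 2 arrays were tested. Log2 intensities were fitted in limma 3.58.1 (R 4.3.3) as 6 group means (11 residual degrees of freedom), with Benjamini-Hochberg adjustment over all genes tested. Differences are perinate minus adult, ± standard error, called at an adjusted p under 0.05. The fit was tested on simulated data. Gene lists (884 of 986 genes matched) and members were chosen with earlier results of these data known. Named were the 15 largest called differences each way with separate arrays, list members, the 8 largest differences between comparisons each way, Aire and G6pc2. Alternatives covered scaling, filter, probe sets, weights, prior, arrays left out, replicate numbers and the arrays fitted. Same-numbered adult GFP+ and GFP- arrays deviated together (r = 0.503, 0.442 and 0.188; other pairs at most 0.097), so they were taken as pairs in 1 added fit. The labels do not say what the numbers mark. Each group holds 2 or 3 arrays, which limits the precision.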

Additional observations from a re-analysis of the deposited data

Results flagged for a closer look

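With 2 or 3 arrays per group, single arrays were not tested as outliers, and the results listed here are age differences that differed between cell populations by an interaction test (limma, adjusted p under 0.05 over all genes). Between WT and KO GFP+ cells, 67 genes were more positive and 100 more negative in WT cells.

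The age difference was more positive in WT than in KO GFP+ cells for Nr1d1 (2.08), the steroid hydroxylase gene Cyp17a1 (1.95), the retinal opsin Rgr (1.76), Ctla4 (1.71), Cxcl13 (1.66), the thioesterase gene Acot12 (1.53), I830077J02Rik (1.47) and the cannabinoid receptor gene Cnr2 (1.42), all on the log2 scale. It was more negative for Tdo2 (-2.25), the homeobox gene Irx4 (-2.17), Cyp2j13 (-2.11), Elobl (-1.73), the hydroxysteroid dehydrogenase gene Akr1c18 (-1.62) and Gm7982 (-1.61). The histone genes H3c15 (-2.50) and H3c4 (-1.78) were also more negative, but they belong to a near-identical family whose probes may be shared. Rgr and Cnr2 lay below the 40th percentile on all 6 WT GFP+ arrays. H3c15 was above it on 1, Gm7982 on 2, and Ctla4, Acot12 and Cyp2j13 on 3. The WT differences of these genes therefore involve dim values. On the KO arrays, Tdo2, Elobl, Akr1c18 and Gm7982 lay in or near the dim range. Irx4 (1.12, adjusted p = 0.00184, limma) and Cyp2j13 (0.80, adjusted p = 0.001) rose in perinate KO cells, opposite to their fall in WT cells. The call of the difference was lost in 8 of 20 alternatives for H3c15, in 14 of 21 for H3c4 and in 11 of 21 for I830077J02Rik. List members with a more negative difference in WT cells were Fabp2 (-1.08), Tff3 (-1.05), Pgc (-0.91), Tff1 (-0.87), Vil1 (-0.73), Cps1 (-0.99), Apob (-0.95), Xcl1 (-0.99), Cdkn2c (-0.83) and Dll4 (-0.72). In 10 or more of 21 alternatives the call was lost for Tff3 (16), Dll4 (15), Vil1 (13), Tff1 (12), Pgc (11) and Cdkn2c (10), as it was for Cxcl13 (13).

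Between GFP+ and GFP- cells of WT mice, 1478 genes were more positive and 1283 more negative in GFP+ cells. The largest positive differences were in Lyz2 (3.81) and its near-identical neighbour Lyz1 (3.08), the chemokine gene Ccl11 (3.77), the interleukin 12 receptor gene Il12rb2 (3.42), Sdr16c6 (2.97), Clca1 (2.95), Cyp2b19 (2.92) and Trpm5 (2.92). The largest negative ones were in Ptprz1 (-3.37), Scgb2b27 (-3.32), the quinone reductase gene Nqo1 (-3.18), the glycine receptor gene Glrb (-2.97), Cxcl12 (-2.75), Dsc3 (-2.65), Frem2 (-2.49) and the amino acid transporter gene Slc38a4 (-2.44). Sdr16c6, Glrb and Cxcl12 lay in the dim range on every WT GFP+ array. Scgb2b27 lay in it on every perinate WT GFP+ array (18.3, 16.8 and 16.8). Its 2 perinate GFP- arrays spread widely (mean 153, standard deviation 195). The call of its difference was lost with the replicate block and without adult WT GFP+ array 8. Of the genes described above, Fezf2 (2.14), Fdps (1.19), Msmo1 (1.16) and Hmgcs1 (0.90) were more positive in GFP+ cells, and E2f8 (-1.49) and Foxm1 (-1.20) more negative.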

How the results depend on the processing

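The age difference in WT GFP+ cells gave 1179 genes that rose and 1888 that fell with all arrays. When any 1 array was left out, 742 to 1009 rose and 1331 to 1756 fell. Fitted alone, the 6 WT GFP+ arrays gave 837 that rose and 1614 that fell. With the replicate block, 1060 rose and 1461 fell; same-numbered perinate and adult arrays did not deviate together (r = 0.033 and 0.19, beside -0.298 to 0.261 for other pairs), so the numbers were not taken as pairs between the ages. Under the block, WT GFP+ minus KO gave 39 more positive genes, and WT GFP+ minus GFP- gave 894 more positive and 564 more negative. WT GFP+ minus KO gave 26 and 60 genes when only genes above the 60th percentile were tested, and 316 and 496 when arrays were weighted. Without perinate KO arrays 2 and 3 it gave 21 and 24, and in KO cells 819 genes rose and 1048 fell. Leaving out 1 array gave 18 to 78 and 31 to 138 for WT GFP+ minus KO, 1033 to 1521 and 836 to 1440 for WT GFP+ minus GFP-, 1121 to 1789 and 1265 to 1443 in KO cells, and 2188 to 3028 and 2542 to 3184 in GFP- cells. Aire, not past the test, ranged from -0.1916 to 0.0628 when 1 array was left out and changed sign without adult array 7 (0.0628) and without perinate array 6 (0.02). Over all named genes, 4397 values kept their side of the threshold and 533 lost the call in the same direction; apart from fewer arrays or genes, the cause was not tested.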

Other observations

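Genes of other signalling systems were read in the same comparison. Of 10 glucocorticoid-responsive genes, 3 fell and none rose in perinate WT GFP+ cells. Tsc22d3, the glucocorticoid-induced leucine zipper, read 257, 326 and 239.7 on the perinate arrays, against 489, 410.0 and 496 on the adult arrays (-0.77 ± 0.12, adjusted p = 3.70e-04). Sgk1, a kinase induced by steroids, read 249, 272 and 232 on the perinate arrays, against 519, 342 and 371 on the adult arrays (-0.69 ± 0.17, adjusted p = 0.0081). Hsd11b1, which regenerates active glucocorticoid inside cells, read 117, 112 and 108 on the perinate arrays, against 144, 153 and 175 on the adult arrays (-0.48 ± 0.13, adjusted p = 0.016). None of these 3 genes overlapped between the ages, and Hsd11b1 did not pass without adult array 8 or perinate array 7.

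Of 11 genes of retinoid metabolism, 2 rose and 2 fell. Aldh1a3, which makes retinoic acid, read 240.0, 255 and 238 on the perinate arrays, against 444, 469.9 and 405 on the adult arrays (-0.85 ± 0.09, adjusted p = 1.81e-05), and the retinal reductase gene Dhrs3 fell as well (-0.59 ± 0.13, adjusted p = 0.00454). Crabp2, which carries retinoic acid to the nucleus, read 375, 479 and 595 on the perinate arrays, against 255, 263 and 299 on the adult arrays (0.80 ± 0.19, adjusted p = 0.00743), and Cyp26b1, which breaks it down, rose (0.39 ± 0.10, adjusted p = 0.00913). Of 14 clock genes, Bhlhe41 read 97.0, 205 and 227 on the perinate arrays, against 462, 486 and 683 on the adult arrays (-1.70 ± 0.26, adjusted p = 2.75e-04) and Bhlhe40 rose (1.30 ± 0.40, adjusted p = 0.0267) with overlapping arrays, but not without adult array 7 or 8 or perinate array 5 or 6. Of 23 Wnt and Notch genes, 3 rose and 3 fell (1 and 1 without adult array 8), among them the ligand genes Wnt7b (0.54 ± 0.12, adjusted p = 0.00564) and Wnt5b (0.42 ± 0.12, adjusted p = 0.0164) and the Notch target Nrarp (-0.51 ± 0.17, adjusted p = 0.0357); Wnt5b did not pass without adult array 8, nor Nrarp without adult array 6 or 8 or perinate array 5. The brain and myelin list had 6 genes tested, of which 3 fell: Pcp4 (-1.04 ± 0.14, adjusted p = 1.12e-04), Pvalb, parvalbumin (-0.87 ± 0.12, adjusted p = 1.09e-04), and the neurofilament gene Nefl (-0.85 ± 0.17, adjusted p = 0.00205).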
